A study of Mus musculus with 12 samples.

Results

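Complement is a cascade of plasma proteins and cell-surface proteins that marks cells and debris for removal and can make pores in membranes. The classical route starts when C1q binds a target and the attached proteases C1r and C1s cut C4 and C2, whose fragments form an enzyme that cuts the central component C3. The alternative route builds a like enzyme from C3 and factor B, and inhibitors such as the C1 inhibitor, CD55 and CD59 hold the cascade back at its start, at the C3 step and at the pore. In the brain, glial cells make several of these proteins, and complement is known for tagging synapses and myelin for removal by microglia.

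The 9 complement components and regulators described here are C1ra and C1s1 (proteases of the C1 complex), C4b, C2 and Cfb (parts of the enzymes that cut C3), C3 itself, and the inhibitors Serping1, Cd55 and Cd59a. They were chosen by name from 55536 annotated genes, not by their values, although earlier results of these data were known when they were chosen. Their counts came from total RNA-seq of oligodendrocyte precursor cells (OPCs), the proliferating forerunners of the cells that make myelin in the brain, cultured from pooled brains of P4-P6 mouse pups in medium with PDGFaa and bFGF. Cultures received no further agent (Ctr-OPCs), 1 µM of the glucocorticoid dexamethasone (Dexa-treated OPCs) or 100 ng/ml of the cytokine IFN-γ (IFN-γ-treated OPCs) for 48 h, with 4 labelled replicates a group, each from another litter. The mice carried Cre driven by the Sox10 promoter and a GFP reporter that it switches on in the oligodendrocyte lineage. Cells were taken by sorting for GFP or with beads against CD140a (the product of Pdgfra), and which library came from which is not stated in the labels. The labels also give every sample the mouse model tag EAE, a disease model induced by immunisation, next to the pup age, and state no immunisation. The table of Dexa replicate 3 ends after 33.7% of its transcripts and lists only Cd55 of the 9 members, so the comparisons hold 4 Ctr, 3 Dexa and 4 IFN-γ libraries.

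The 11 complete libraries held 19209059 to 52074655 reads assigned to genes. The treatments left their known marks: Irf1, an interferon-induced transcription factor, was higher in IFN-γ-treated than in Ctr-OPCs by 6.01 ± 0.10 (log2 fold change ± SE; edgeR's adjusted p = 2.57e-10), and Fkbp5, a glucocorticoid-induced gene, was higher in Dexa-treated OPCs by 1.47 ± 0.20 (DESeq2's adjusted p = 3.99e-10). Markers of OPCs were abundant, with a summed level of 667 to 1857 TPM (a level scaled for transcript length and library size) over 7 genes. The 10 microglia and macrophage genes summed to 3.48 to 5.50 TPM in Ctr-OPCs, 4.54 to 5.39 in Dexa-treated OPCs and 5.13 to 7.45 in IFN-γ-treated OPCs, and Aif1, Cx3cr1, Trem2 and Tyrobp had at most 3 counts in every complete library. Astrocyte genes were present in all libraries (8 genes, 149 to 317, 308 to 477 and 269 to 435 TPM in the Ctr, Dexa and IFN-γ groups), and Gfap (log2 fold change 3.82) and Aldoc (0.78) among them were called higher in IFN-γ-treated OPCs. S100b (-1.60), Aqp4 (-1.02), Gja1 (-0.35), Aldh1l1 (0.55), Slc1a2 (0.30) and Slc1a3 (0.25) were not called. Of the other marker lists, only Lum (3.86, 1 of 6 fibroblast and mural genes) and Syt1 (1.10, 1 of 3 tested neuron genes) were called higher with IFN-γ, and Flt1 (1.11, 1 of 4 tested endothelial genes) was called higher with Dexa (DESeq2, adjusted p under 0.05). The part of these cell types in the results on complement genes was not tested. These are bulk samples, in which a change in the number of cells of a type cannot be told apart from a change in RNA per cell.

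Promoter sequences of 5 of the 9 members were at hand from RefSeq (build GRCm38.p6), each running from 250 bases before the annotated start to 50 bases after it. Those of C1ra and C1s1, neighbours on chromosome 6 that rose with IFN-γ, are shown next to those of C3 and Cd59a, which stayed near the limit of counting. C1s1 had 2 such windows from different annotated starts. The second, chr6:124542272-124542571, was searched as well and is not shown. Capitals mark matches to 2 motifs known to be bound by interferon-activated factors, GAS (TTCNNNGAA) and an ISRE-type motif (GAAA, any 2 bases, GAAA), searched on both strands.
C1ra, chr6:124512371-124512670, plus strand: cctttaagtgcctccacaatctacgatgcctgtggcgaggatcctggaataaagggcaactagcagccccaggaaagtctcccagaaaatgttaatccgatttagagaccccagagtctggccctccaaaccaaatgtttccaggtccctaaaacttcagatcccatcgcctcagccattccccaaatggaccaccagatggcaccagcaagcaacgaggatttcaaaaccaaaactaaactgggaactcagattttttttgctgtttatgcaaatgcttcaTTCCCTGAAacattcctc
C1s1, chr6:124542310-124542609, minus strand: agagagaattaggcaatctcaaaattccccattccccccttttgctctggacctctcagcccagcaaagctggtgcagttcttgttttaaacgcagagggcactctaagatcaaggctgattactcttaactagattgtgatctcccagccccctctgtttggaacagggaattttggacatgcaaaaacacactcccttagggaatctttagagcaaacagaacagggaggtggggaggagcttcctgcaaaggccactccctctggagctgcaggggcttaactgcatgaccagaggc
C3, chr17:57228087-57228386, minus strand: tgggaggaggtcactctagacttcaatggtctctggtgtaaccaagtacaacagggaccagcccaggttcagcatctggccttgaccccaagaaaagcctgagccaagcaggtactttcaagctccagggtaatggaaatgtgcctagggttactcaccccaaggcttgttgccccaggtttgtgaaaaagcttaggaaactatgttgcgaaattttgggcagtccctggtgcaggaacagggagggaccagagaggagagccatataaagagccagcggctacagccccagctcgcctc
Cd59a, chr2:104095551-104095850, plus strand: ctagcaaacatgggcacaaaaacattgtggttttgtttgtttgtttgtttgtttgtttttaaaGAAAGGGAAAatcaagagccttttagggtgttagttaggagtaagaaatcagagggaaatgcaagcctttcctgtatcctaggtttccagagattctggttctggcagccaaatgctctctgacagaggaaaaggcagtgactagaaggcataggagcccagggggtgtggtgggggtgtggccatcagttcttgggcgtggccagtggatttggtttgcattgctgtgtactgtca
C1ra held 1 GAS match, TTCCCTGAA, 32 bases after the RefSeq start. The GENCODE annotation used for the counts starts C1ra 216 bases further upstream. Cd59a held 1 ISRE-type match, GAAAGGGAAA, 187 bases before its start, while C1s1, C3 and Cd55 held neither motif in these windows. A κB-type motif (GGGA, any 4 bases, CC) matched in C1s1, in Cd55 and at 3 places in C3, and none of the 5 matched the glucocorticoid receptor motif (AGAACA, any 3 bases, TGTTCT) with up to 2 mismatches allowed. Of 32817 promoter windows of this length in the mouse annotation, 8.29% held a GAS match, 3.43% an ISRE-type match, 20.7% a κB-type match and 1.84% a glucocorticoid receptor match. No overlap between the motifs shown in capitals occurred. A match is a run of letters and was not tested as a binding site.

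With IFN-γ, 6 of the 9 members rose against Ctr-OPCs, namely C1ra, C1s1, C4b, C2, Cfb and Serping1, and none fell (DESeq2's Wald test, adjusted p under 0.05). Of all 17919 genes tested, 8.02% were called higher in this comparison and 4.83% lower. The same 6 members were called by edgeR's quasi-likelihood test, which called 6.06% of the tested genes higher, and by both tools with the replicate number as a block (DESeq2 15.2% and edgeR 16% of the tested genes higher). Cd55 was tested and not called, and C3 and Cd59a failed the filter of at least 10 counts in at least 4 libraries. C1ra and C1s1 passed that filter through the IFN-γ libraries alone, so the filter itself required them to be high there. Serping1 and Cd55 reached 10 counts in 2 Ctr and 0 Dexa libraries each, so they too passed only with the help of IFN-γ libraries. In every one of the 6, the lowest IFN-γ library lay above the highest Ctr library, which held for 8.66% of the tested genes in that direction. For C1ra and C1s1, with at most 7 and 2 counts in any Ctr library, the filter required this, so it is no added result for them.

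**Figure D1:**
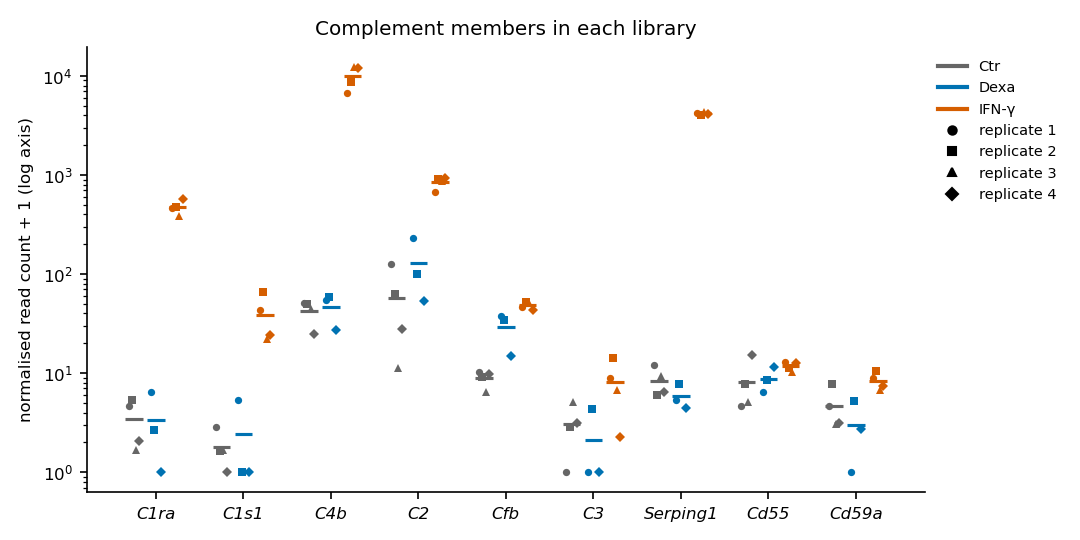
Normalised read count plus 1 (vertical log axis) of each member in each complete library, coloured by group, with the marker shape giving the replicate number and the short bar the group mean. For C1ra, C1s1, C4b, C2, Cfb and Serping1 all 4 IFN-γ libraries lie above all 4 Ctr libraries, while C3, Cd55 and Cd59a reach at most 14.1 normalised reads in any library.

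C1ra encodes a mouse C1r, the protease that activates C1s. Ctr-OPCs had 3.67, 4.34, 0.689 and 1.09 normalised reads of it in replicates 1 to 4, Dexa-treated OPCs 5.40, 1.68 and 0 in replicates 1, 2 and 4, and IFN-γ-treated OPCs 461, 477, 388 and 566. The IFN-γ libraries were thus within a narrow band, far above a baseline of single reads. DESeq2 put the difference from Ctr-OPCs at a log2 fold change of 7.54 ± 0.45 (SE, adjusted p = 4.58e-61), and edgeR at 7.48 (adjusted p = 2.68e-06). As only 13 Ctr reads stand behind it, the ratio of summed reads was 184-fold with a 95% exact counting interval of 107 to 346.

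C1s1 encodes C1s, the protease that cuts C4 and C2. It was counted at 2, 1, 1 and 0 reads in Ctr-OPCs, at 4, 0 and 0 in Dexa-treated OPCs, and at 43, 68, 18 and 18 in IFN-γ-treated OPCs. Replicates 1 and 2 were thus the higher pair with IFN-γ. The fold change was 5.58 ± 0.93 on the log2 scale (DESeq2, adjusted p = 7.35e-08; edgeR 5.39, adjusted p = 0.00105), and the ratio of summed reads was 50.4-fold with a counting interval of 19.3 to 187. C1s1 shares 33.5% of its 31-base words with its copy C1s2, which held 1 to 7 reads in every complete library. With both genes summed the log2 fold change was 3.07 ± 0.47 and still called (DESeq2, adjusted p = 2.99e-09). C1ra shares 56.9% of its words with C1rb, which was at 0 in all Ctr and IFN-γ libraries, so summing them left 7.54 ± 0.45.

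C4b, the precursor that C1s cuts to start the classical C3 convertase, was among the members with the highest level per length with IFN-γ. It stood at 50.5, 48.3, 43.4 and 23.9 normalised reads in Ctr-OPCs and at 6722, 8698, 12240 and 12151 in IFN-γ-treated OPCs. Dexa-treated OPCs had 54.0, 57.3 and 26.2, a range that overlaps that of Ctr-OPCs. The rise with IFN-γ was 7.89 ± 0.30 on the log2 scale (DESeq2, adjusted p = 5.30e-154; edgeR 7.89, adjusted p = 6.59e-08). Of its 31-base words, 48.3% are also in C4a, the neighbouring copy. C4a itself went from 13.0 to 19.3 normalised reads in Ctr-OPCs to 14.1 to 30.2 in IFN-γ-treated OPCs (0.74 ± 0.33, DESeq2's adjusted p = 0.15), and it passed the threshold only with edgeR and a replicate block (adjusted p = 0.0478) and without IFN-γ replicate 4 (adjusted p = 0.0353, or 0.0347 when 3 libraries with 10 counts sufficed). C4a and C4b summed rose by 7.44 ± 0.27 (DESeq2, adjusted p = 2.68e-168).

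C2, the serine protease that joins C4b in the classical C3 convertase, had an uneven baseline. Ctr-OPCs had 125, 62.6, 10.3 and 27.1 normalised reads in replicates 1 to 4, and Dexa-treated OPCs had 230, 99.4 and 52.4 in replicates 1, 2 and 4. IFN-γ-treated OPCs had 672, 910, 876 and 924, all above the highest of the other libraries. The fold change was 3.91 ± 0.61 on the log2 scale (DESeq2, adjusted p = 6.40e-09; edgeR 3.92, adjusted p = 0.00382), and it was 4.50 ± 0.62 with the replicate number as a block and 4.66 without Ctr replicate 1. The same libraries differed in astrocyte genes, whose summed level in Ctr-OPCs was 317, 299, 149 and 209 TPM in replicates 1 to 4, lowest in replicate 3 as for C2. The part of astrocytes in the C2 baseline was not tested.

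Cfb encodes factor B, the counterpart of C2 in the alternative route. It was low everywhere, at 9.18, 8.05, 5.51 and 8.69 normalised reads in Ctr-OPCs and 45.7, 51.0, 50.1 and 42.4 in IFN-γ-treated OPCs. The rise was 2.61 ± 0.34 on the log2 scale (DESeq2, adjusted p = 1.35e-12; edgeR 2.59, adjusted p = 2.21e-04). Cfb shares 75.5% of its 31-base words with Gm20547, an annotated readthrough gene that spans Cfb and C2, and the split of reads between them is uncertain. The 3 genes summed rose by 3.78 ± 0.56 (DESeq2, adjusted p = 4.71e-10), a sum made up mostly of C2.

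C3 (chr17:57203970-57228136, minus strand), the component on which all routes meet, was barely counted. The complete libraries held 0, 3, 6 and 2 reads in Ctr-OPCs, 0, 4 and 0 in Dexa-treated OPCs and 8, 14, 5 and 1 in IFN-γ-treated OPCs. The groups overlap. In the fit without a count filter the fold change with IFN-γ was 1.78 on the log2 scale with a 95% interval of -0.21 to 3.77 (DESeq2, adjusted p = 0.35).

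Serping1 (chr2:84765387-84775444, minus strand) encodes the C1 inhibitor, which binds and inactivates C1r and C1s. It had 11.0, 4.96, 8.27 and 5.43 normalised reads in Ctr-OPCs and 4.32, 6.74 and 3.49 in Dexa-treated OPCs. IFN-γ-treated OPCs had 4266, 4059, 4355 and 4129, the tightest values of the 9 members relative to their mean (4202 ± 133, SD, n = 4). The rise was the largest fold change among the members at 9.17 ± 0.25 on the log2 scale (DESeq2, adjusted p = 9.50e-286; edgeR 9.14, adjusted p = 5.66e-10). Serping1 shares none of its 31-base words with another gene.

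Cd55 (chr1:130439027-130462744, minus strand), a membrane inhibitor that takes the C3-cutting enzymes apart, and Cd59a (chr2:104095801-104115354, plus strand), which blocks the pore, were both at the edge of counting. Cd55 was counted at 4, 11, 6 and 13 reads in Ctr-OPCs, at 5, 9, 2 and 6 in Dexa-treated OPCs (replicate 3 included, whose incomplete table lists this gene) and at 12, 11, 8 and 9 in IFN-γ-treated OPCs. Its log2 fold change with IFN-γ was 0.64, with a 95% interval of -0.34 to 1.62 (DESeq2, adjusted p = 0.51). Cd59a was counted at 4, 11, 3 and 2, at 0, 5 and 1, and at 8, 10, 5 and 5 reads in the same groups, and without a count filter its log2 fold change with IFN-γ was 0.97, with an interval of -0.33 to 2.28 (DESeq2, adjusted p = 0.48). All groups overlap for Cd55, and for Cd59a the Ctr libraries overlap both treated groups.

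Within replicate numbers, taken as pairs, the IFN-γ library was above its own Ctr library in 4 of 4 replicates for each of the 6 called members. This follows from their groups not overlapping and is no added result. The share of all tested genes with such a pattern was not counted. Cd59a, at low counts, was also above its own Ctr library in 4 of 4 replicates (log2 ratio 0.42 to 1.23). With Dexa it was below its own Ctr library in 3 of 3, a pattern whose share was not counted either. Its IFN-γ libraries all lay above its Dexa libraries, as did those of 11.2% of the tested genes. Cd59a failed the count filter, so it was not tested in the fit that made the calls. For the called members the log2 ratio (normalised reads plus 1) ran from 8.47 to 9.41 for Serping1, from 7.03 to 8.93 for C4b and from 6.48 to 8.09 for C1ra. For C2 it was spread widely, at 2.42, 3.84, 6.27 and 5.04 in replicates 1 to 4, the reverse of the order of its Ctr values. Cfb varied little, between 2.16 and 2.97. The titles of replicates 3 and 4 begin with the same number, whose meaning is not stated, and the called members rose in each of them as in replicates 1 and 2.

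**Figure D2:**
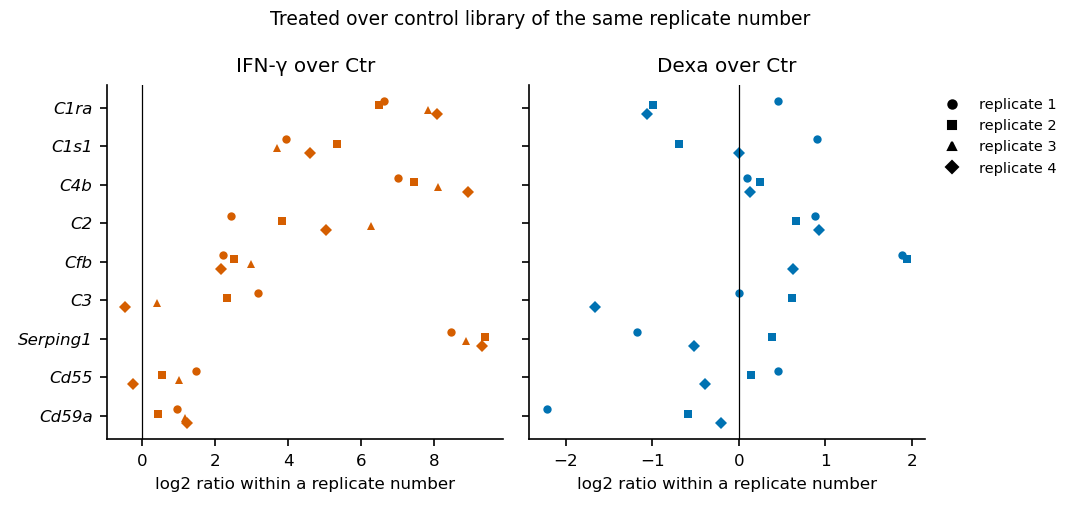
Log2 ratio of normalised reads plus 1 (horizontal axes, with different scales) of the treated over the Ctr library of the same replicate number, for IFN-γ (left, 4 pairs) and Dexa (right, 3 pairs). For C1ra, C1s1, C4b, C2, Cfb and Serping1 all 4 IFN-γ ratios lie above 2, and for Dexa only C2, C4b and Cfb have all 3 ratios above 0. The share of all tested genes with such patterns was not counted.

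With dexamethasone, DESeq2 called 1 of the 9 members against Ctr-OPCs. Cfb had 36.7, 33.7 and 14.0 normalised reads in Dexa-treated OPCs against 5.51 to 9.18 in Ctr-OPCs. The groups did not overlap (2.58% of the tested genes in that direction), though replicate 4 was the lowest. Before scaling, the counts were 34, 40 and 8 with Dexa and 10, 13, 8 and 8 in Ctr-OPCs. Dexa replicate 4 thus stood apart only through its size factor of 0.572. DESeq2 put the rise at 1.92 ± 0.38 on the log2 scale (adjusted p = 1.87e-04), where 0.508% of the tested genes were called higher. The edgeR test without a block did not call it (1.87, adjusted p = 0.0785, 0.117% of the tested genes called higher), while the fits with a replicate block did. These gave DESeq2 1.83 with an adjusted p = 0.00316 (2.05% called higher) and edgeR an adjusted p = 0.0186 (1.31%). Summed with C2 and Gm20547 the difference was 1.26 ± 0.60 and not called (DESeq2, adjusted p = 1). That sum is mostly C2, with a mean of 127 normalised reads with Dexa against 28.1 for Cfb. It therefore cannot decide the difference in Cfb. The within-replicate ratios of Cfb were 1.89, 1.94 and 0.63 on the log2 scale in replicates 1, 2 and 4. The summed level of the astrocyte genes was 308 to 477 TPM with Dexa and 149 to 317 TPM in Ctr-OPCs, with none of the 8 called. The part of astrocytes in the Cfb difference was not tested.

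C2 was not called with Dexa (1.18 ± 0.67 on the log2 scale, DESeq2's adjusted p = 1, or 0.77 with the replicate block). Its within-replicate log2 ratios were 0.66 to 0.92 in the 3 pairs. The share of all tested genes above Ctr in all 3 pairs was not counted. C4b differed by 0.16 ± 0.34 and Serping1 by -0.49 ± 0.46, with adjusted p = 1 for both. C1ra, C1s1 and Cd55 were not called either, the 95% interval for C1ra being -1.37 to 1.42 on the log2 scale. C3 and Cd59a failed the count filter and were not tested in this fit. The sign of the estimate turned between settings for C1ra, C1s1, C4b and Cd55.

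Set directly against Dexa-treated OPCs, IFN-γ-treated OPCs were higher in C1ra, C1s1, C4b, C2 and Serping1, 5 of the 9 members, with none lower. In this comparison 7.66% of the tested genes were called higher. Cfb did not pass, at 0.69 ± 0.32 on the log2 scale (DESeq2, adjusted p = 0.15), although its lowest IFN-γ library, at 42.4 normalised reads, stood above its highest Dexa library, at 36.7, as did 11.2% of the tested genes. C2 was 2.73 ± 0.66 higher (adjusted p = 6.10e-04), against 3.42 with the replicate block and 3.47 without Dexa replicate 1. The Dexa and Ctr groups gave near-equal references for C4b (7.73 ± 0.33), Serping1 (9.66 ± 0.40) and C1ra (7.51 ± 0.59). Without Dexa replicate 1, which held 5 of the 7 Dexa reads of C1ra and all 4 of C1s1, the estimates were 8.71 for C1ra and 7.41 for C1s1, in place of 7.51 and 4.66.

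Per length, the order of the members changed between groups. In IFN-γ-treated OPCs Serping1 led with 61.1 ± 4.75 TPM (SD, n = 4), followed by C4b at 44.4 ± 10.8, C2 at 9.17 ± 1.77 and C1ra at 3.57 ± 0.78, with no overlap between neighbours in this order. Cfb (0.66 ± 0.33) and C1s1 (0.55 ± 0.22) overlapped each other, as did Cd59a (0.13 ± 0.04) and Cd55 (0.12 ± 0.05), and C3 came last at 0.031 ± 0.024. Among Ctr-OPCs C2 had the highest mean, 0.98 ± 0.93 TPM, and each member overlapped its neighbour in the order. With Dexa C2 (0.80 to 4.88 TPM) and Cfb (0.26 to 0.37 TPM) stood above the rest. The inhibitor Serping1 was thus expressed at a higher level than either of its target proteases in IFN-γ-treated OPCs, 54.8 to 66.3 TPM against 2.54 to 4.30 for C1ra and 0.30 to 0.81 for C1s1.

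The reads of C2 were assigned to different transcripts in the presence and absence of IFN-γ, a feature chosen after its values were seen. The C2 transcript with 18 exons received 641, 929, 726 and 685 estimated reads in IFN-γ replicates 1 to 4, which is 94.9% to 96.5% of the gene. It received 0 in all 7 Ctr and Dexa libraries, although these held 638 C2 reads together. There, 80.8% to 92.0% of the reads went to a transcript with 14 exons, which received 0 in all IFN-γ libraries.

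The 14-exon transcript starts 13447 bases upstream of the 18-exon one, in an exon of 141 bases at chr17:34895407-34895547 (GRCm38, minus strand) that lies wholly inside an exon of Zbtb12, a zinc finger gene on the opposite strand. Of its bases 92.8% are also in the 18-exon transcript. Zbtb12 was not called with IFN-γ (0.00 ± 0.15 on the log2 scale, DESeq2's adjusted p = 0.99). The tables give reads per transcript and not per base, so where the baseline reads lie on the 14-exon transcript is not known, and whether strand was used in the assignment is not stated. The C2 fold change per gene therefore compares reads assigned to different transcripts.

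**Figure D3:**
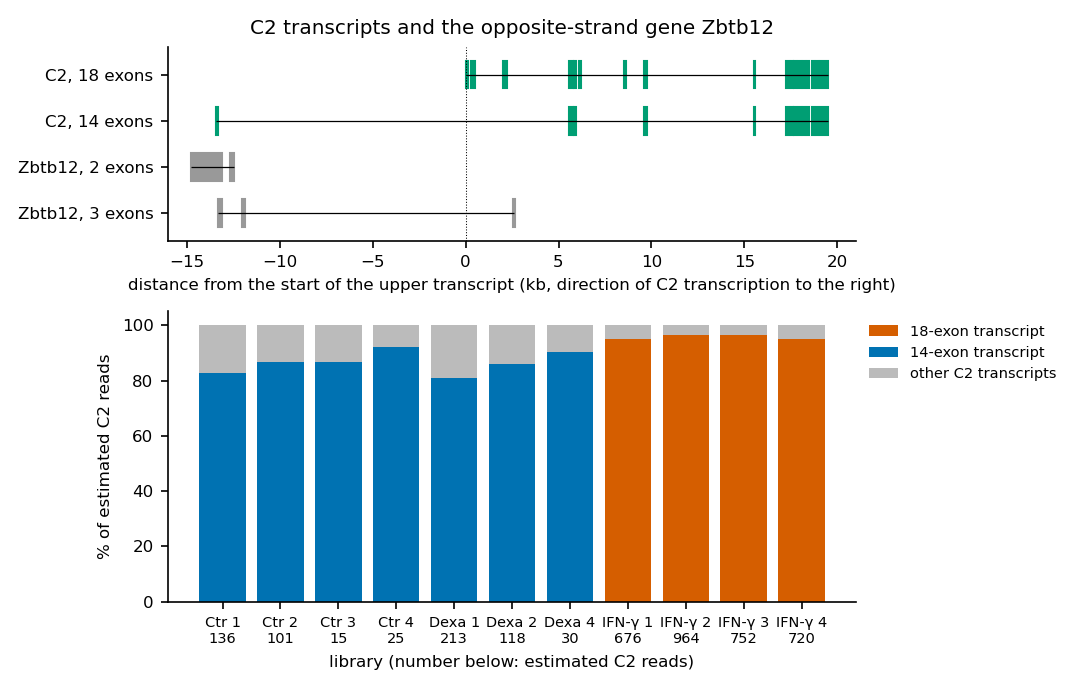
Top, exons of both C2 transcripts and of the opposite-strand Zbtb12 transcripts as distance in kb from the start of the 18-exon C2 transcript. Bottom, percentage of the estimated C2 reads assigned to each transcript in each complete library, with the read number under each bar: the 14-exon transcript holds 80.8% to 92.0% in Ctr and Dexa libraries and the 18-exon transcript holds 94.9% to 96.5% in IFN-γ libraries.

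C4b, Cfb and C2 lie within 170 kb on chromosome 17 (GRCm38, chr17:34728380-34898265), in the class III part of the major histocompatibility complex, all on the minus strand. Of 18 annotated genes there, 9 were tested and 4 were called higher with IFN-γ, as were 8.02% of all tested genes. The stretch was set by the positions of the 3 members, so they are in this count by choice. Beside the 3 members this was Stk19, by 0.51 ± 0.17 on the log2 scale (DESeq2, adjusted p = 0.032). The interleaved genes Dxo (0.11 ± 0.14), Skiv2l (-0.12 ± 0.07), Nelfe (0.04 ± 0.13), Zbtb12 and C4a were not called. C1ra (plus strand) and C1s1 (minus strand) lie on chromosome 6 with their 3′ ends facing each other 6.90 kb apart, within chr6:124512405-124542359, and both were called.

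For each tested member, the protein-coding genes with the most similar pattern over the 11 libraries were looked up. For Serping1 they were Olfr56, Irf1 and Nlrc5 (Pearson r of 0.998 for each on log2 normalised reads plus 1), and for C4b they were Parp9, Ifit1 and H2-Q4 (r = 0.998, 0.998 and 0.997). C1ra was most like Nmi, Bst2 and Slfn8 (r = 0.998, 0.996 and 0.996), and C1s1 was most like Slc19a2, Ccng1 and Ripk1 (r = 0.985, 0.980 and 0.979). For C2 they were Elmo2, 2610507B11Rik and Parp4 (r = 0.975, 0.970 and 0.965), and for Cfb Ada, Cyp4v3 and Apip (r = 0.945, 0.942 and 0.938). Cd55 had no close match, its best being Borcs5 at r = 0.869, followed by Pfkfb4 and Uso1 (r = 0.867 and 0.861). These values describe libraries that share treatment and litter.

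Of 52 other complement genes, 18 passed the filter and 1, Clu, was called with IFN-γ in the fit without a block, where it was higher (12.8% of all tested genes were called in either direction). The median log2 fold change of the 18 was -0.11, against -0.02 for all tested genes. Clu encodes clusterin, a secreted protein that also keeps the terminal pore from inserting. It stood at 325, 209, 122 and 226 normalised reads in Ctr-OPCs and 1045, 658, 437 and 806 in IFN-γ-treated OPCs. The rise was 1.74 ± 0.33 on the log2 scale (DESeq2, adjusted p = 3.02e-06, and edgeR, adjusted p = 0.00598). Within replicates its log2 ratio was 1.65 to 1.83. Without a block none of the 18 was called with Dexa by DESeq2 or edgeR, 0 of them having an unadjusted p under 0.05. In that fit DESeq2 gave no p for Cd93 in either comparison.

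With the replicate number as a block, DESeq2 called 7 of the 18 with IFN-γ, where it called 29.2% of all tested genes. Clu was again higher. Lower were Csmd1 (-1.07, adjusted p = 8.36e-21), Csmd3 (-0.62, adjusted p = 1.10e-10) and Susd4 (-0.31, adjusted p = 1.59e-04), membrane proteins with complement-control domains, together with Colec12 (-1.44), a scavenger receptor of the collectin family, Vtn (-2.21), the pore inhibitor vitronectin, and Cd93 (-1.26), a membrane protein once taken for a C1q receptor. The groups overlapped widely for Csmd1, at 432 to 2173 normalised reads in Ctr-OPCs and 186 to 1211 in IFN-γ-treated OPCs. For Colec12 the values were 29.3 to 50.2 and 6.42 to 28.3, close to each other at the edge. Without a block Colec12 was not called (-1.34 ± 0.52, DESeq2's adjusted p = 0.0703; edgeR's adjusted p = 0.149). With Dexa the blocked fit called Csmd3 alone (0.36, adjusted p = 0.0169). Set against Dexa-treated OPCs, the blocked fit also called Calr, which encodes calreticulin, higher with IFN-γ (0.23, adjusted p = 0.00277) and Csmd2 lower (-0.35, adjusted p = 4.15e-04), neither of them called against Ctr-OPCs.

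**Figure D4:**
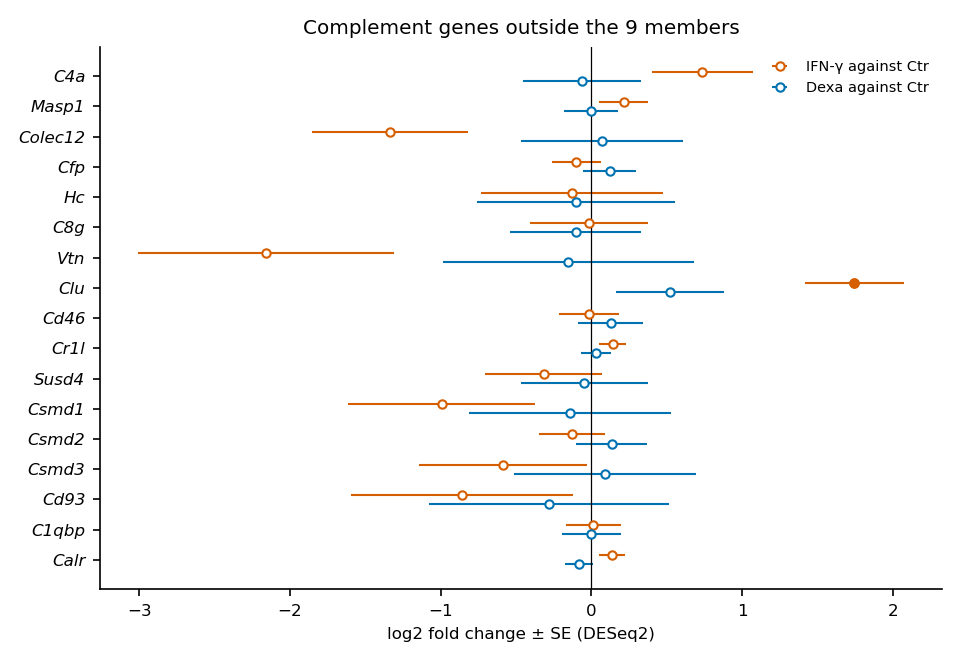
Log2 fold change with its standard error (horizontal axis) of 17 of the 18 other complement genes that passed the filter, for IFN-γ and Dexa against Ctr in the fit without a block. Filled points were called at an adjusted p under 0.05, which holds for Clu with IFN-γ alone.

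Several partners of the called members were near the limit of counting. C1qa, C1qb and C1qc, the recognition part to which C1r and C1s attach, had 0 to 4 reads in every complete library and 0.13 TPM at most. Among the terminal components, C6, C8a and C9 had at most 3 reads in any library, C7 and C8b at most 7, and Hc, which encodes C5, 2 to 17. C8g, which encodes a further chain of C8, had 4 to 26 reads (0.14 to 0.63 TPM), passed the filter and was not called (IFN-γ against Ctr -0.02 ± 0.39 on the log2 scale, DESeq2's adjusted p = 0.99). The receptors C5ar1 and C5ar2 had at most 2 reads and C3ar1 at most 9. By contrast Masp1, a protease of the lectin route, was present at 14.0 to 24.4 TPM, with no call in any group (IFN-γ against Ctr 0.21 ± 0.17, DESeq2's adjusted p = 0.50). The same held for Cr1l, the rodent membrane inhibitor Crry, which limits C3 and C4 deposition on the cell's own surface: it stood at 9.13 to 10.8 TPM in Ctr-OPCs, 10.1 to 10.4 with Dexa and 9.81 to 15.4 with IFN-γ (0.14 ± 0.09, DESeq2's adjusted p = 0.39). Among the membrane inhibitors of the C3 step, Cr1l therefore stood above Cd55 in every complete library, as Cd55 did not exceed 0.19 TPM.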

How the data were processed

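The authors made total RNA-seq libraries with a strand-specific kit, trimmed the reads and ran Salmon 0.8.2, and deposited estimated counts and TPM values per transcript (STAR and DESeq2 also stand in the submitters' processing notes). Transcripts were matched to GENCODE M21 (GRCm38), and 0 lacked a gene. Estimated counts were summed per gene and rounded, and TPM values were summed. The deposited DESeq2 tables hold the authors' own comparisons and were not used. Dexa replicate 3 lists 47855 of 141862 transcripts and entered only fits of genes it lists whole.

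Tested were genes that reached 10 counts in 4 or more of the 11 complete libraries (17919 of 55536). DESeq2 1.42.0 fitted the group with no covariate, as the study's methods name DESeq2 and no pairing, and called an adjusted p under 0.05 (Benjamini-Hochberg over all tested genes). Normalised reads are counts over DESeq2's size factors. edgeR 4.0.16, replicate blocks, other filters and left-out libraries were alternatives, and the fits were tested on simulated data. Deviations from group means were correlated between libraries of different groups. The correlation was 0.40 to 0.72 for the same replicate number and -0.61 to 0.50 for different numbers. The ranges overlap: Ctr replicate 3 correlated at 0.56 with IFN-γ replicate 3 and at 0.50 with Dexa replicate 4. The numbers were taken as pairs, which these values do not settle for replicates 3 and 4. Within groups no pair of libraries agreed within sampling noise (chi-square per degree of freedom 22.0 to 223).

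Named were all 9 members, other complement genes that DESeq2 called with or without the block, near-identical copies, C1q, the C3 and C5 receptors and Cr1l, neighbouring genes, and per tested member the 3 genes of highest Pearson r. The values of 1 other complement gene are not reported here. Members and lists were chosen with earlier results of these data known. Shared words are 31-base runs of a gene's transcripts that occur in another gene. Counting intervals (95%, exact) cover counting error only, as PCR copies were not told apart. At this depth a gene with 10 counts has a large counting error.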

Additional observations from a re-analysis of the deposited data

How the results depend on the processing

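The 6 calls with IFN-γ against Ctr, and the 5 against Dexa, held their direction and their side of the threshold in every alternative that tested the gene. Leaving out 1 library gave 4 to 6 called members against Ctr and 3 to 5 against Dexa. The low ends came from each IFN-γ library left out, where C1ra and C1s1 no longer reached 10 counts in 4 libraries, and with 3 libraries sufficing (chosen after seeing the data) the numbers were 6 and 5. For Dexa against Ctr the count of 1, Cfb, was 0 with edgeR without a block (1 unadjusted p under 0.05) and 1 without any single library.

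The replicate block, which treats same-numbered libraries as pairs, left 6, 1 and 5 members called in the 3 comparisons with DESeq2. It moved edgeR from 0 to 1 with Dexa against Ctr. Among other complement genes it raised the calls from 1 to 7 (edgeR 8) with IFN-γ against Ctr, from 0 to 1 with Dexa, and from 1 to 8 (edgeR 8) with IFN-γ against Dexa, where edgeR without a block called 0 (5 with an unadjusted p under 0.05). The fit of the compared groups only called 2 with IFN-γ against Ctr. Leaving out 1 library gave 1 to 3, and 0 to 3 against Dexa, the 0 without Dexa replicate 4. With IFN-γ libraries left out and 3 libraries sufficing, the calls were 3 (replicate 1), 2 (replicate 2) and 2 (replicate 4) against Ctr, and 3 and 2 (replicates 1 and 2) against Dexa. Over all genes the calls were 2302, 98 and 2345. They were 5238, 460 and 5662 with DESeq2's block, 5606, 282 and 6045 with edgeR's block, and 1513 and 22 with edgeR without a block for the first and second comparison. Leaving out 1 library gave 1577 to 2666, 59 to 112 and 1649 to 2518, the 59 without Dexa replicate 2.

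Reversed estimates were all uncalled and for Dexa against Ctr, and the cause was not tested. C1ra (0.03) was -0.24 and -0.081 with the DESeq2 and edgeR blocks and -1.18 to 0.58 with 1 library left out, negative without Dexa replicate 1, Ctr replicate 3 or Ctr replicate 4. C1s1 (0.92) was -1.82 to 1.67, negative without Dexa replicate 1. C4b (0.16) was -0.026 to 0.41, negative without Dexa replicate 2 or Ctr replicate 4. Cd55 (0.13) was -0.082 to 0.34, negative without Ctr replicate 1, Ctr replicate 3 or Dexa replicate 4, and -0.0055 with Dexa replicate 3 included. C4a (-0.06) was -0.31 to 0.12, positive without Ctr replicate 1 or Dexa replicate 2.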

Other observations

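The assignment of Cfb reads to its 8 transcripts was unstable at this depth. In IFN-γ-treated OPCs the transcript with the most Cfb reads over the group took 0% to 60.5% of the gene's reads in single libraries, so Cfb values per length depend on which transcript was chosen in a library. By contrast the leading transcript of Serping1 took 91.5% to 92.7% of its reads in all 4 IFN-γ libraries, and that of C4b took 98.3% to 98.8%.

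Collectins and ficolins, which start the lectin route, were near the limit of counting apart from Colec12. Mbl1, Fcna and Fcnb had 0 reads in all complete libraries, Mbl2 and Colec10 at most 2, and Colec11 2 to 9. Properdin (Cfp), which stabilises the alternative C3-cutting enzyme, stood at 0.95 to 1.42 TPM over all groups and was not called (IFN-γ against Ctr -0.10 ± 0.16 on the log2 scale, DESeq2's adjusted p = 0.80).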
